A study of Mus musculus with 10 samples.

Results

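Oligodendrocytes wrap axons of the brain in myelin, and their lineage runs from dividing precursors through committed, newly forming cells to mature myelinating cells. The genes described here are 35 genes of that lineage, taken by symbol from a list: genes of myelin structure, of myelin lipid synthesis and metabolic support, of lineage transcription factors, of precursors and of committed cells, with the cadherin gene Cdh19. Of the 35 genes, 34 were among the 12575 genes of the table, and all 34 were above 1 CPM (read counts scaled to the library's total) in every library. Lhfpl3, a precursor gene, was not analysed here.

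The libraries were made from cortical tissue of 5 BMAL1 aKO mice and 5 Cre- littermates, all of strain C57BL/6 and labelled 4 months old. The published text gives another age for the sequenced mice. BMAL1 aKO mice carried Aldh1l1-CreERT2 and Bmal1 fl/fl, so that tamoxifen deletes Bmal1, a core gene of the circadian clock, in cells that use the Aldh1l1 promoter, which are mainly astrocytes. The Cre- littermates carried the same floxed Bmal1 alleles without Cre, and the study's methods give tamoxifen to both groups. The comparison asks whether deleting Bmal1 in astrocytes alters the cortex, and oligodendrocytes are not the cells that were targeted. The published text counts fewer BMAL1 aKO mice than the labels do and does not name the library that was left out, so all libraries were used and each was also left out in turn. Because whole cortex was sequenced, a lower value of a gene can come from fewer cells that make it or from less RNA per cell, and these cannot be told apart.

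Precursors are known to carry the growth factor receptor encoded by Pdgfra and the proteoglycan NG2 encoded by Cspg4. The transcription factors Olig1, Olig2 and Sox10 act along the lineage, and Myrf is needed to switch on myelin genes. Myelin itself is compacted membrane, rich in the lipids galactosylceramide and sulfatide and in a small set of abundant proteins such as myelin basic protein, from Mbp.

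The members differ widely in the share of G and C bases in their transcripts, and this share is used below to describe how libraries differ. It ran between 37.4% for Cdh19 and 65.8% for C1ql1, with a median of 52.8% over the 34 members against 50.2% over 12548 genes of the table. The first 120 coding bases of 4 members, from GENCODE M21 transcripts on GRCm38, show both ends of the range, with every G and C in capitals. They are the 2 members with the lowest share over the whole transcript, Cdh19 and Ugt8a, and the 2 with the highest, C1ql1 and Nkx6-2.
Ugt8a: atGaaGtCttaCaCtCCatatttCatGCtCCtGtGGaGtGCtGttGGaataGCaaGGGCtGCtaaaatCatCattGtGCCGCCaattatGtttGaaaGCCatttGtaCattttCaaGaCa
Cdh19: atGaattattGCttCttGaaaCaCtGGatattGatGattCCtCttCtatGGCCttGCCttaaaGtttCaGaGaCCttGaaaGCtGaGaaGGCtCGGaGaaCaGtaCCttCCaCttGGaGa
C1ql1: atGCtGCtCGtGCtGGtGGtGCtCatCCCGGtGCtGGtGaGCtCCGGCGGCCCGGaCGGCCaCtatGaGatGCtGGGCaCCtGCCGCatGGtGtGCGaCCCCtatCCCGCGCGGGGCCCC
Nkx6-2: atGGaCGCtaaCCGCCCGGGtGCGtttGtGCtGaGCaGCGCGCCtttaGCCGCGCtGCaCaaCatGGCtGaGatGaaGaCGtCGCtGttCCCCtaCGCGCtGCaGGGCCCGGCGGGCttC
The stretch of Ugt8a, the enzyme that makes galactosylceramide, lies on chromosome 3 at 125915340 to 125915459 on the minus strand and holds 48 G or C bases. That of Cdh19 lies on chromosome 1 at 110954641 to 110954760 on the minus strand and holds 50. The stretch of C1ql1, a secreted C1q-like protein, lies on chromosome 11 at 102946342 to 102946461 on the minus strand and holds 85. That of Nkx6-2, a homeodomain transcription factor, lies on chromosome 7 at 139582420 to 139582539 on the minus strand and holds 79. In percent, the stretches hold 40.0 and 41.7 G or C in Ugt8a and Cdh19, and 70.8 and 65.8 in C1ql1 and Nkx6-2.

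Libraries held 23127338 to 47964460 reads in BMAL1 aKO and 21844770 to 48295715 reads in Cre-. The lowest read number of any member in any library was 78, for Gal3st1. The targeted gene, listed as Arntl, ranged between 31.1 and 38.8 CPM in the 5 BMAL1 aKO libraries and between 31.9 and 37.1 CPM in the 5 Cre- libraries. The groups overlapped, which says nothing about the labels, since most cells of the cortex keep Bmal1 and reads from all exons were counted. Cre- replicate 3 stood apart: its mitochondrial transcripts summed to 61929 CPM against 92922 to 198813 CPM in the other libraries, and 9 striatal markers summed to 2146 CPM against 509 to 1293 CPM. It also had the lowest sample quality weight, 0.181, while Cre- replicate 1 had the highest, 7.19. These weights, estimated over all genes, decide how much each library counts in the fit. The other Cre- libraries had weights of at most 1.52, so the Cre- side of that fit rests mostly on Cre- replicate 1. Choroid plexus markers summed to 1061 CPM in BMAL1 aKO replicate 1, 929 CPM in Cre- replicate 5 and 280 CPM in Cre- replicate 4, and to at most 39.5 CPM elsewhere. Of 10 astrocyte markers 1, Gja1, passed the threshold. Of 5 Schwann cell markers 1, Egr2, was in the table, which is too few to check for peripheral myelin.

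Across the 34 members no gene passed the threshold in BMAL1 aKO against Cre-. The test was limma on log2(CPM + 0.5) with sample quality weights and Benjamini-Hochberg adjustment over 12573 genes, with a threshold of 0.1. Over all genes 42 passed, 0.334%. Every fold change below is a difference of log2(CPM + 0.5) with its standard error (SE), a scale on which changes of low genes come out too small. Without the weights the members again gave 0 of 34, and all genes gave 4, 0.0318%. At an unadjusted p below 0.05 the fit with weights had 4 members higher and 1 lower in BMAL1 aKO, against 6.82% of all genes higher and 10.0% lower. The 4 were Trf, Bcas1, Olig1 and Ppp1r14a, and the 1 was Cdh19. Without weights 0 members were higher and 1, Cdh19, was lower at such a p, against 2.51% of all genes higher and 2.27% lower, 4.79% together. In voomWithQualityWeights on whole reads 0 members passed the threshold, and 29 of 12573 genes did over all genes. No member had groups that did not overlap, which 0.620% of all genes showed with BMAL1 aKO higher and 0.382% with BMAL1 aKO lower.

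The direction of the members together depended on the weights. With weights 25 of 34 fold changes were positive, 73.5% against 38.4% of all genes, and the median was 0.08 against -0.04 over all genes. Without weights 15 of 34 were positive, 44.1% against 37.0%, and the median was -0.04 against -0.05 over all genes. The summed CPM of the 34 members was 4044 to 5482 in BMAL1 aKO, with a median of 4317, and 3423 to 6375 in Cre-, with a median of 4226. In this sum the BMAL1 aKO libraries therefore lay inside the range of the Cre- libraries. Mbp and Mobp, with means of 1921 and 963 CPM over all libraries, made up most of the sum.

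**Figure D1:**
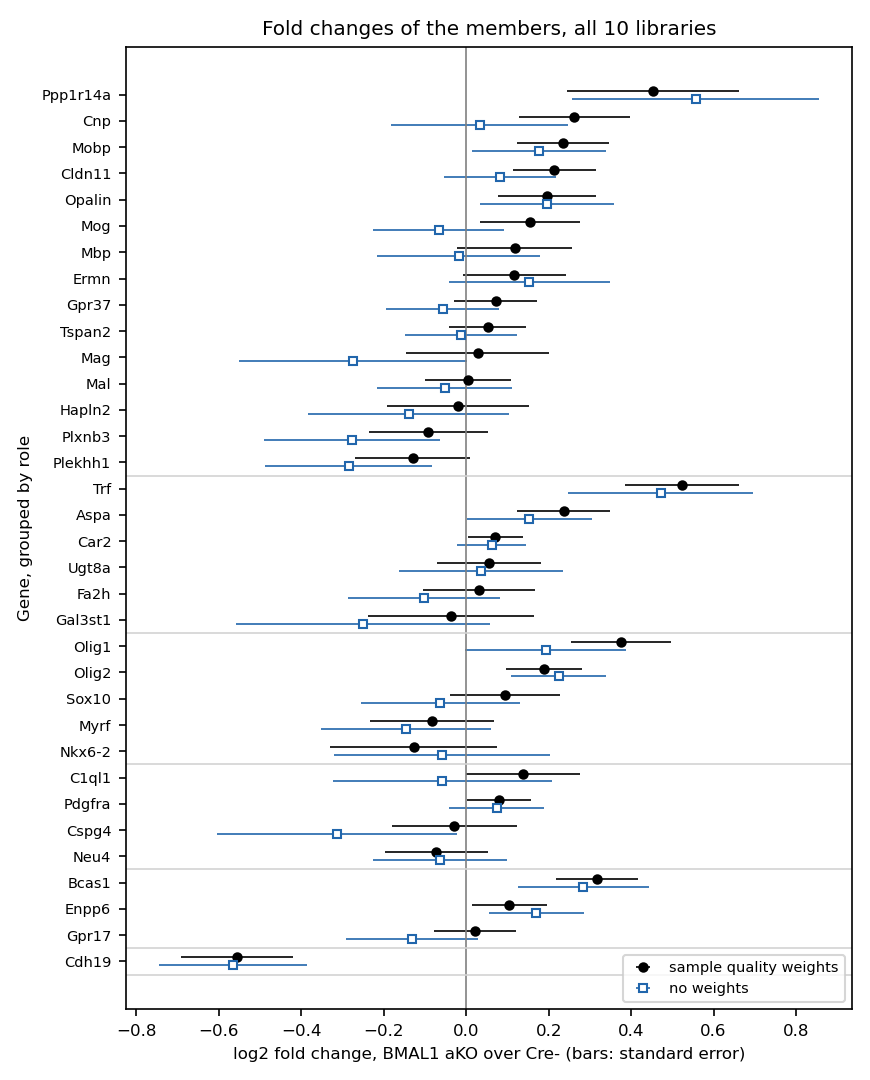
Log2 fold change of each of the 34 members, BMAL1 aKO over Cre-, grouped by role, with sample quality weights (filled circles) and without (open squares); bars are standard errors of the limma fit over 10 libraries. Trf and Ppp1r14a lie farthest to the right and Cdh19, at -0.56, alone on the far left, and Mag and Cspg4 are among the genes whose value moves left without weights.

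Genes of myelin structure came first in level. Per kilobase of exon, Mbp had the highest mean level of the members, 226.9 CPM, followed by Mobp with 140.7, Mal with 63.1, Car2 with 56.8 and Cldn11 with 52.1. The lowest were Neu4 and Enpp6, each with 1.26 CPM per kilobase. Of the 15 structure genes 0 passed the threshold, and 12 fold changes were positive with weights (median 0.12) and 6 without (median -0.02).

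Mbp, which holds the cytoplasmic faces of myelin together, was at 1940, 1760, 2344, 1646 and 1700 CPM in BMAL1 aKO and at 1777, 1506, 2244, 2949 and 1348 CPM in Cre-. The highest and the lowest value both belonged to Cre- libraries. The fitted log2 fold change of Mbp was 0.12 (SE 0.14, adjusted p = 0.681, limma), and -0.02 without weights. Cldn11, the claudin of myelin tight junctions, was at 111.5, 83.8, 115.8, 93.1 and 95.4 CPM in BMAL1 aKO and at 85.6, 96.0, 91.5, 125.5 and 76.5 CPM in Cre-. The ranges overlapped, and the log2 fold change was 0.21 (SE 0.10, adjusted p = 0.2999, limma), 0.08 without weights and 0.01 without Cre- replicate 5.

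Ppp1r14a encodes an inhibitor of myosin phosphatase. It was at 18.8, 4.89, 8.66, 6.23 and 5.77 CPM in BMAL1 aKO and at 5.36, 5.08, 4.16, 6.77 and 4.76 CPM in Cre-. BMAL1 aKO replicate 1, which also held the choroid plexus markers, had the high value, but Cre- replicate 5, with nearly as much of those markers, had 4.76 CPM. A two-sided exact permutation test gave p = 0.119 for Ppp1r14a. The log2 fold change was 0.45 (SE 0.21, adjusted p = 0.294, limma), and 0.26 without BMAL1 aKO replicate 1. The part of the choroid plexus markers in this value was not tested.

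The other structure genes had fold changes between -0.13 for Plekhh1 and 0.26 for Cnp. The exons of Plekhh1 share 14.8% of their bases with Pigh on the opposite strand, so its count is uncertain. Cnp, the phosphodiesterase that keeps cytoplasmic channels in myelin open, averaged 163.6 ± 15.9 CPM in BMAL1 aKO and 168.6 ± 64.3 CPM in Cre- (SD, n = 5 each). Its log2 fold change was positive with weights and, at 0.03, without them, so both fits differ in direction from the plain CPM means. Mag, the adhesion protein of the membrane next to the axon, averaged 78.4 ± 14.5 CPM in BMAL1 aKO and 102.8 ± 50.1 CPM in Cre- (SD, n = 5 each). In both genes the Cre- libraries were spread more widely, with replicates 3 and 4 at the top.

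The 6 genes of lipid synthesis and support gave 0 past the threshold and a median log2 fold change of 0.06 with weights and 0.05 without. Trf had the smallest p among them. It encodes transferrin, the iron carrier that oligodendrocytes make. Trf was at 28.5, 19.9, 31.7, 30.5 and 37.6 CPM in BMAL1 aKO and at 20.8, 29.0, 13.0, 27.6 and 17.9 CPM in Cre-. All BMAL1 aKO libraries but replicate 2 lay above at least 4 of the 5 Cre- libraries, and the groups overlapped. The log2 fold change was 0.52 (SE 0.14, adjusted p = 0.158, limma), and 0.47 without weights (adjusted p = 0.803, limma). A two-sided exact permutation test on the mean log2 value gave p = 0.0873 for Trf. The annotated exons of Trf share 63.5% of their bases with Gm20425 on the same strand, so its count is uncertain.

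Aspa, which splits N-acetylaspartate and so supplies acetate, was at 16.3, 16.5, 26.4, 24.3 and 21.3 CPM in BMAL1 aKO and at 18.2, 21.9, 15.2, 18.6 and 18.8 CPM in Cre-. Aspa had a log2 fold change of 0.24 (SE 0.11, adjusted p = 0.308, limma), and 0.15 without weights. Car2, a carbonic anhydrase, was the steadiest member, at 139.9, 137.4, 155.0, 147.6 and 123.6 CPM in BMAL1 aKO and at 136.0, 137.6, 126.5, 147.1 and 125.9 CPM in Cre-. For Car2 the log2 fold change was 0.07 (SE 0.07, adjusted p = 0.602, limma). Gal3st1, the sulfotransferase that makes sulfatide, was the least steady, at 6.21, 5.41, 8.07, 3.98 and 4.41 CPM in BMAL1 aKO and at 5.71, 3.57, 11.5, 11.0 and 4.59 CPM in Cre-. Cre- replicates 3 and 4 were high and the other libraries lay between 3.57 and 8.07 CPM, and the log2 fold change was -0.04 (SE 0.20, adjusted p = 0.943, limma), -0.25 without weights and 0.03 under TMM scaling. Fa2h, which adds the hydroxyl group to myelin fatty acids, and Ugt8a had values of 0.03 and 0.06.

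Of the 5 transcription factor genes 0 passed the threshold. Olig1, a basic helix-loop-helix factor of the lineage, was at 73.7, 50.4, 60.4, 52.5 and 65.4 CPM in BMAL1 aKO and at 46.2, 48.0, 80.0, 62.2 and 35.5 CPM in Cre-. Cre- replicate 3 had the highest value of all libraries. The log2 fold change was 0.38 (SE 0.12, adjusted p = 0.183, limma), 0.19 without weights and 0.14 without Cre- replicate 5. A two-sided exact permutation test gave p = 0.405 for Olig1. Olig2, its neighbour on chromosome 16, was at 25.7, 26.4, 26.6, 23.7 and 31.0 CPM in BMAL1 aKO and at 24.2, 26.8, 20.2, 24.2 and 19.0 CPM in Cre-. Its log2 fold change was 0.19 (SE 0.09, adjusted p = 0.320, limma).

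Myrf was at 81.5, 60.6, 86.5, 57.5 and 60.5 CPM in BMAL1 aKO and at 75.5, 59.2, 85.7, 119.97 and 54.0 CPM in Cre-. The Cre- range enclosed the BMAL1 aKO range, and the log2 fold change was -0.08 (SE 0.15, adjusted p = 0.799, limma), and -0.15 without weights. Sox10 and Nkx6-2 had log2 fold changes of 0.09 and -0.13, and the exons of Nkx6-2 share 12.9% of their bases with Inpp5a on the opposite strand.

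The 4 measured precursor genes gave 0 past the threshold and a median log2 fold change of 0.03, or -0.06 without weights. Pdgfra was at 49.8, 68.2, 49.7, 53.1 and 53.9 CPM in BMAL1 aKO and at 51.3, 45.2, 63.9, 51.1 and 49.4 CPM in Cre-. One library of each group, BMAL1 aKO replicate 2 and Cre- replicate 3, lay above the rest. Pdgfra had a log2 fold change of 0.08 (SE 0.08, adjusted p = 0.608, limma). C1ql1 was at 6.88, 9.61, 5.99, 7.65 and 7.17 CPM in BMAL1 aKO and at 6.42, 5.08, 16.6, 8.08 and 6.03 CPM in Cre-, so Cre- replicate 3 again was high. Its log2 fold change was 0.14 (SE 0.14, adjusted p = 0.619, limma), and -0.06 without weights.

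The 3 genes of committed cells had a median log2 fold change of 0.10 with weights and 0.17 without, and 0 passed. Bcas1, known from early myelinating cells, was at 222.9, 152.0, 213.5, 185.7 and 184.3 CPM in BMAL1 aKO and at 153.9, 193.6, 115.6, 198.4 and 134.8 CPM in Cre-. Its 2 highest libraries were BMAL1 aKO replicates 1 and 3, and its 2 lowest were Cre- replicates 3 and 5. Bcas1 had a log2 fold change of 0.32 (SE 0.10, adjusted p = 0.183, limma), and 0.28 without weights (adjusted p = 0.803, limma). A two-sided exact permutation test gave p = 0.143 for Bcas1. The exons of Bcas1 share 11.7% of their bases with an opposite transcript, Bcas1os1, and the library kit does not mark strand. Enpp6, a choline phosphodiesterase of newly forming oligodendrocytes, was at 9.11, 7.63, 9.26, 8.56 and 8.35 CPM in BMAL1 aKO and at 8.26, 8.33, 6.41, 8.13 and 6.84 CPM in Cre-. Its log2 fold change was 0.10 (SE 0.09, adjusted p = 0.561, limma), 0.17 without weights, and that of Gpr17, a receptor gene of committed precursors, was 0.02.

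Cdh19, a cadherin for cell adhesion, had the smallest p of the members. It was at 7.46, 8.23, 14.1, 9.86 and 8.71 CPM in BMAL1 aKO and at 14.9, 15.2, 10.1, 15.6 and 16.2 CPM in Cre-. BMAL1 aKO replicate 3 and Cre- replicate 3 lay near the other group and made the groups overlap. The log2 fold change was -0.56 (SE 0.14, adjusted p = 0.148, limma), and -0.57 without weights (adjusted p = 0.803, limma). A two-sided exact permutation test gave p = 0.0159 for Cdh19. The study drew Cdh19 as a changed gene from these libraries, so its direction here is not independent evidence.

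**Figure D2:**
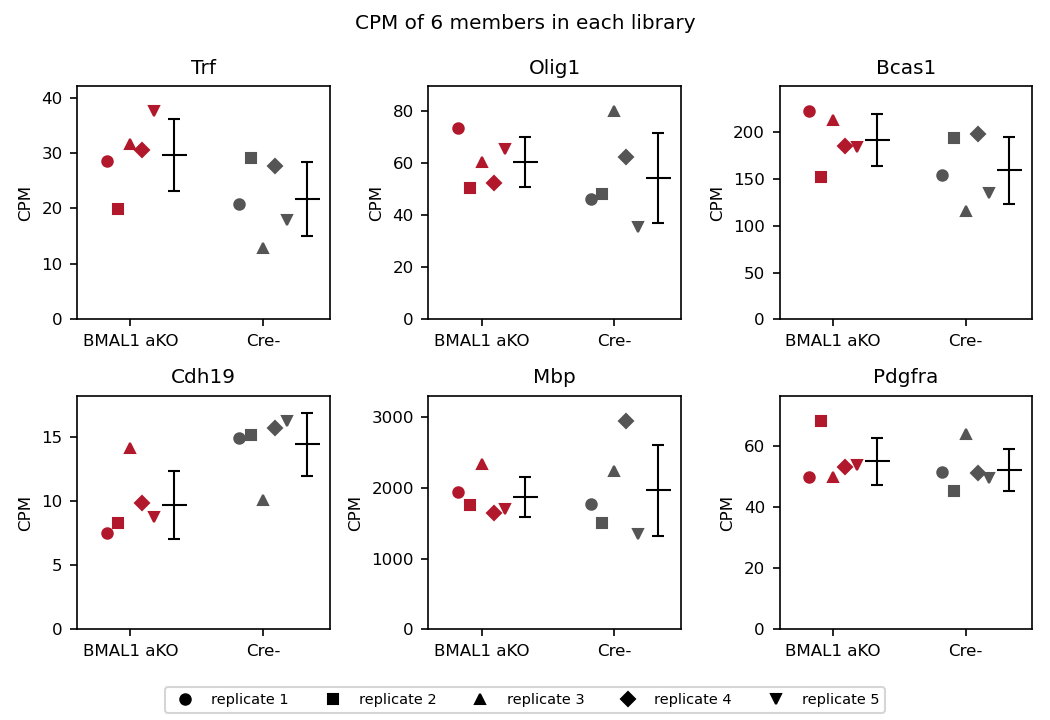
CPM of 6 members in each of the 10 libraries, BMAL1 aKO at the left of each panel and Cre- at the right; the symbol shape gives the replicate number, and the bar beside each group is the mean with its SD (n = 5). The groups overlap in all 6 panels; in Cdh19 the overlap comes from replicate 3 of each group, at 14.1 CPM in BMAL1 aKO and 10.1 CPM in Cre-.

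Leaving out single libraries changed which members passed. Without BMAL1 aKO replicate 3, limma called 844 of 12572 genes, 6.71%, and among the members Cdh19 (-0.73, SE 0.10, adjusted p = 0.00988) and Trf (0.53, SE 0.16, adjusted p = 0.0935), 2 of 34. In that fit 18 of 34 fold changes were positive, with a median of 0.01 against -0.06 over all genes. An unadjusted p below 0.05 was found for 3 members with BMAL1 aKO higher and 1 lower, against 8.47% and 14.3% of all genes. Without BMAL1 aKO replicate 2, Trf passed (0.64, SE 0.12, adjusted p = 0.0644, limma), 1 of 34 against 0.414% of all genes, and 7 members were higher and 1 lower at an unadjusted p below 0.05, against 7.91% and 14.1% of all genes. Cre- replicates 3 and 4 held the highest values of 19 of the 34 members, and leaving both out was a choice made after seeing the data. It takes those high values out of the Cre- group, so higher fold changes of those members are partly built in. Cre- replicate 3 also held the lowest value of 11 members, so the direction is not fixed for every member. The weights were also estimated anew without these libraries. In that fit Cnp (0.53, SE 0.10, adjusted p = 0.0626) and Olig1 (0.64, SE 0.12, adjusted p = 0.0619) passed in limma, 2 of 34 against 0.302% of all genes. Without weights 0 members passed in the same 8 libraries, and Olig1 had 0.48 (adjusted p = 0.819, limma). With weights 33 of 34 fold changes were positive, with a median of 0.25 against -0.01 over all genes, and 16 members had an unadjusted p below 0.05 with BMAL1 aKO higher and 1 with BMAL1 aKO lower, against 7.78% and 6.32% of all genes. No member passed in the other 22 of 25 fits.

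Other genes of the lineage were counted from a separate list. Of 30 further mature genes in the table, out of 32 listed, 0 passed the threshold, and 4 had an unadjusted p below 0.05 with BMAL1 aKO higher and 0 with BMAL1 aKO lower, against 6.82% and 10.0% of all genes. Without weights these were 0 and 0, and positive fold changes were 12 of 30, against 20 of 30 with weights. Qdpr and Klk6 had the smallest p of these genes. Qdpr, which regenerates tetrahydrobiopterin, was at 85.4, 77.3, 102.7, 113.5 and 119.7 CPM in BMAL1 aKO and at 78.4, 124.6, 91.4, 82.0 and 75.4 CPM in Cre-. Klk6, a secreted serine protease, was at 3.09, 3.28, 4.56, 4.54 and 3.83 CPM in BMAL1 aKO and at 2.57, 3.94, 3.81, 4.29 and 1.32 CPM in Cre-. The groups overlapped in both genes, with log2 fold changes of 0.35 for Qdpr and 0.60 for Klk6 (adjusted p = 0.183 for each, limma). Without weights these were 0.15 for Qdpr (adjusted p = 0.804, limma) and 0.31 for Klk6 (adjusted p = 0.803, limma). Of 20 further precursor and committed genes 0 passed, with 2 higher and 1 lower in BMAL1 aKO at an unadjusted p below 0.05, against the same 6.82% and 10.0% of all genes, and 0 and 0 without weights.

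The mature genes were next set against the precursor genes within each library. The mean log2(CPM + 0.5) of the 21 genes of structure, lipid synthesis and support was 5.85 ± 0.19 in BMAL1 aKO and 5.83 ± 0.28 in Cre- (SD, n = 5 each). For the 4 precursor genes it was 3.84 ± 0.19 in BMAL1 aKO and 3.93 ± 0.43 in Cre- (SD, n = 5 each). Mature minus precursor was 2.07, 1.48, 2.43, 1.93 and 2.14 in BMAL1 aKO replicates 1 to 5, and 1.99, 2.22, 1.16, 2.26 and 1.89 in Cre- replicates 1 to 5. The group means, 2.01 ± 0.35 in BMAL1 aKO and 1.90 ± 0.44 in Cre- (SD, n = 5 each), differed by 0.11, less than the SD of either group. Leaving out 1 library at a time gave differences between -0.08, without Cre- replicate 3, and 0.24, without BMAL1 aKO replicate 2. The difference is a description, with no test, because the genes were chosen with results of these data known.

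Within the BMAL1 aKO group, replicates 2 and 3 stood at opposite ends. In BMAL1 aKO replicate 3 all 21 mature genes were above their mean over the 10 libraries and 0 of 4 precursor genes were. In BMAL1 aKO replicate 2, 2 of 21 mature genes and 4 of 4 precursor genes were above it. Of all genes, 50.9% were above their mean in BMAL1 aKO replicate 3 and 60.4% in BMAL1 aKO replicate 2. In Cre- replicate 3, 9 of 21 mature and 4 of 4 precursor genes were above it, and the precursor genes deviated by 0.75 on the log2 scale on average. In Cre- replicate 5, 0 of 21 mature and 0 of 4 precursor genes were above it.

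**Figure D3:**
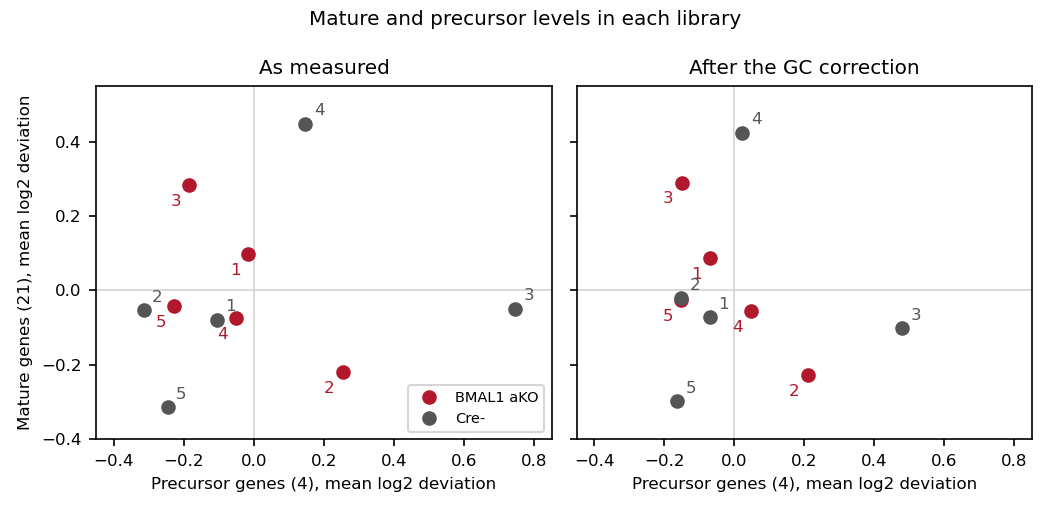
Mean deviation of the 21 mature genes (vertical) and of the 4 precursor genes (horizontal) from their mean over 10 libraries, on the log2(CPM + 0.5) scale, with 1 point per library and its replicate number, as measured (left) and after a straight-line correction on GC content (right). Cre- replicate 4 is at the top and Cre- replicate 5 at the bottom in both panels, and Cre- replicate 3 moves left, 0.75 as measured and 0.48 after the correction.

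The libraries of 1 group differed more in these genes than in most. The median within-group SD of the 34 members was 0.34 on the log2 scale against 0.23 over all genes tested, and 30 of 34 members were above the median of all genes. Among the 200 genes nearest in level, a member's SD stood at a median percentile of 80.0. The same median was 73.75 for the 30 other mature genes and 52 for the 20 other precursor and committed genes. It was 100 for striatal, 82 for neuronal, 72.5 for microglial, 54 for astrocyte and 43.5 for endothelial markers. A wide spread was therefore not particular to the members. Gal3st1 (0.56), Ppp1r14a (0.54), Cspg4 (0.54) and Mag (0.52) had the largest SDs, and Car2 (0.11) and Enpp6 (0.14) the smallest. This spread is what the fold changes above are read against.

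Cre- replicate 4 had the highest value of 13 members, 11 of them mature genes, and 31 of 34 members were above their mean there, all but Aspa, Olig2 and Pdgfra. Cre- replicate 5 had the lowest value of 12 members, and 1 member, Cdh19, was above its mean there. Cre- replicate 3 had the highest value of 6 members and the lowest of 11. The members thus did not move as 1 block in Cre- replicate 3, while they did so for the most part in Cre- replicates 4 and 5. For comparison, 63.2% of all genes were above their mean in Cre- replicate 4, 46.7% in Cre- replicate 5 and 61.0% in Cre- replicate 3.

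**Figure D4:**
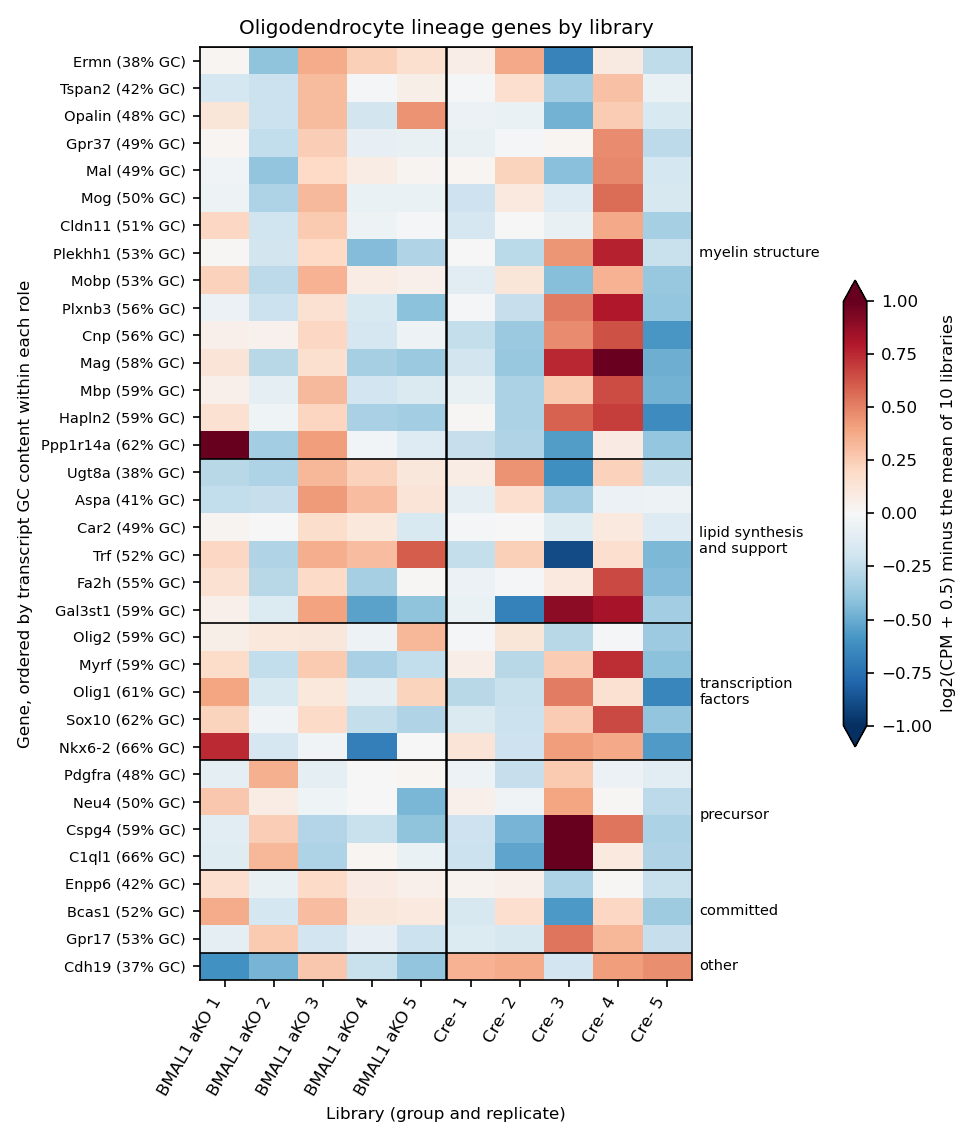
Log2(CPM + 0.5) of the 34 members minus the mean of the 10 libraries, BMAL1 aKO replicates at the left and Cre- replicates at the right of the line, with genes grouped by role and ordered by transcript GC content within each role. Cre- replicate 4 is mostly red and Cre- replicate 5 mostly blue; within the structure and lipid genes, Cre- replicate 3 is blue for most genes of low GC content and red for most genes of high GC content.

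The split of Cre- replicate 3 followed the GC content of the transcripts. Among the 17 members of lower GC content (37.4 to 52.7%), 4 were above their mean there and the median deviation was -0.31. Among the 17 of higher GC content (52.9 to 65.8%), 14 were above it and the median was 0.47. Of the members whose coding starts are printed above, Ugt8a and Cdh19 deviated by -0.61 and -0.19 in Cre- replicate 3, and C1ql1 and Nkx6-2 by 1.09 and 0.42. The 3 members of the higher range that were below their mean were Ppp1r14a (-0.56), Mobp (-0.43) and Olig2 (-0.28), and the 4 of the lower range above it were Plekhh1 (0.44), Neu4 (0.40), Pdgfra (0.26) and Gpr37 (0.02). In Cre- replicate 4 members of both ranges were high, with medians of 0.23 and 0.64, and in Cre- replicate 5 both were low, with -0.22 and -0.40.

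Over the 34 members, Pearson's r of the deviation with GC content was 0.52, 0.38, -0.38, -0.57 and -0.23 in BMAL1 aKO replicates 1 to 5, and -0.47, -0.78, 0.61, 0.36 and -0.72 in Cre- replicates 1 to 5. These r are across genes of 1 library, which are not independent replicates, and they are given as a description. Over 12548 genes the same r was 0.58 in Cre- replicate 3 and -0.59 in Cre- replicate 2, so the relation was not one of the lineage genes alone. Both groups held libraries of either sign. The fold changes of the members had r = 0.17 with GC content with weights, and -0.02 without. Over 12548 genes the fold changes had r = -0.002 with weights and -0.24 without.

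**Figure D5:**
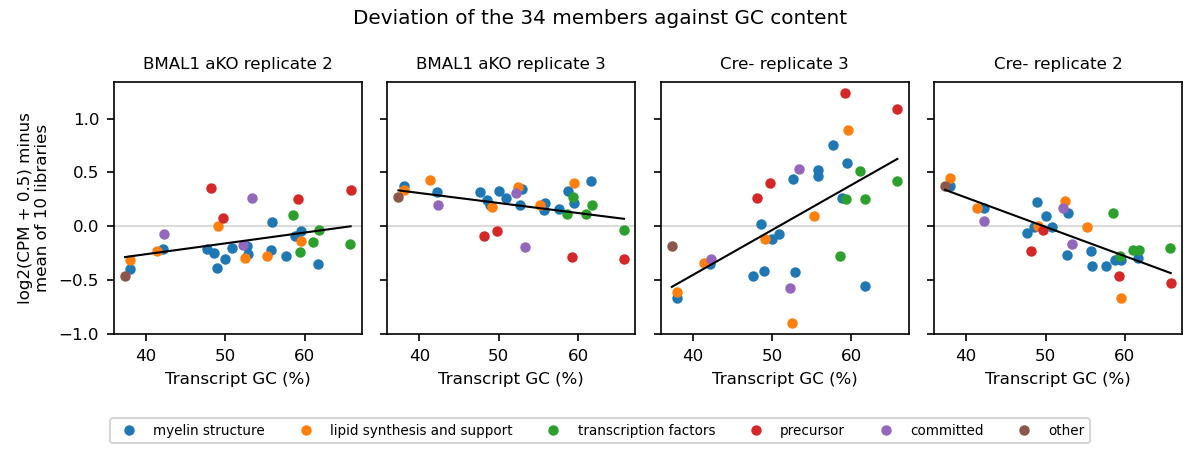
Deviation of each of the 34 members from its mean over 10 libraries, on the log2(CPM + 0.5) scale, against transcript GC content in percent, for BMAL1 aKO replicates 2 and 3 and Cre- replicates 3 and 2; colours give the role and lines are least-squares fits. The line climbs most steeply in Cre- replicate 3 (r = 0.61) and descends most steeply in Cre- replicate 2 (r = -0.78).

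A straight-line correction of every library on GC content, chosen after seeing the data, lowered the members' median within-group SD to 0.28, and that of all genes to 0.20. The SD was lower after it for 23 of 34 members and for 7934 of 12548 genes. The mean deviation of the mature genes stayed near its value in the libraries at the ends: 0.29 in BMAL1 aKO replicate 3 and -0.23 in BMAL1 aKO replicate 2, and 0.42 in Cre- replicate 4 and -0.30 in Cre- replicate 5. That of the precursor genes in Cre- replicate 3 was 0.48 after the correction. No member passed the threshold after it, with weights or without. Cre- replicate 3 also differed in its mitochondrial and striatal transcripts, as given above, and their part in these deviations was not tested.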

How the data were processed

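RNA of cortical tissue was sequenced from 5 BMAL1 aKO and 5 Cre- mice. The authors deposited CPM per gene and library; the labels and methods name STAR 2.5.1a, featureCounts 1.4.6-p5 and Ensembl release 76 on GRCm38, with a SMARTer cDNA kit that does not mark strand. TMM scaling is named in the methods, yet each library's values added up to 99.12 to 99.27% of the full CPM total, so they are unscaled. Every value came back as whole reads within 0.01 read, which gave the totals. The table has 12575 genes, 0 of its columns were left unused, and pairs of libraries of 1 group gave a chi-square of 12.9 to 447.6 for each degree of freedom, far above sampling noise. Nothing in the labels says more than that libraries are separate samples, so p-values measure the spread between them. In the fit with weights the libraries count unequally in that spread, Cre- replicate 1 most.

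Genes had to exceed 1 CPM in 4 or more libraries, and log2(CPM + 0.5) was fitted with limma 3.58.1 (R 4.3.3), with sample quality weights (arrayWeights), a trend in the variance prior and Benjamini-Hochberg adjustment, threshold 0.1. Single members also had two-sided exact permutation tests over 252 splits, unadjusted. Positions, exon lengths, overlaps and GC content came from GENCODE M21. Python 3.11.15, NumPy 2.4.6, pandas 2.3.3, SciPy 1.17.1 and matplotlib 3.10.9 did the rest.

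Members and gene lists were chosen with earlier results of these data known. Values per library are printed for the member of highest mean CPM and the 2 of smallest p in each role, the 2 of largest and the 2 of smallest SD, and Cdh19, with the 2 of smallest p among other lineage genes (1 more gene that the rule names is not reported here); Arntl is shown as the targeted gene, sequences are printed for the 2 members of lowest and the 2 of highest transcript GC content, and Cnp and Mag were chosen after their values were seen. Alternatives were the pseudocount, the filter, no weights, TMM or median-of-ratios scaling, a replicate block, an Xist covariate, voomWithQualityWeights on whole reads, other member sets, a threshold of 0.05 and each library left out; a GC correction, weights in the group means and leaving out Cre- replicates 3 and 4 were added after seeing the data.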

Additional observations from a re-analysis of the deposited data

Results flagged for a closer look

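Of 74 groups of 5 libraries checked, 3 held a library far from the other 4 by Dixon's criterion, which chance alone gives in about 1 of 20 groups. Pdgfra was at 68.2 CPM in BMAL1 aKO replicate 2, against 49.7 to 53.9 CPM in the other BMAL1 aKO libraries. Gpr17 was at 36.7 CPM in BMAL1 aKO replicate 2, against 26.3 to 28.9 CPM in the others of that group. Both genes belong to precursors and committed cells, and 4 of 4 precursor genes were above their mean in that library, as were 60.4% of all genes. Cdh19 was at 10.1 CPM in Cre- replicate 3, against 14.9 to 16.2 CPM in the other Cre- libraries.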

How the results depend on the processing

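Over all genes 42 passed the threshold, 4 without weights, 68 with TMM scaling, 7 with the replicate block, 22 with the Xist covariate, 4 with the GC correction and no weights, 6 without Cre- replicates 3 and 4 and without weights, 20 at a threshold of 0.05, and 1 to 844 with 1 library left out (844 without BMAL1 aKO replicate 3, 1 without Cre- replicate 1). Members past the threshold were 0 to 2 with 1 library left out and 2 without Cre- replicates 3 and 4. Deviations from the group means did not match by replicate number (r between -0.625 and 0.364 for equal numbers, and 1 Cre- library matched its own number best). Such r cannot show whether mice or preparations were paired. Under the replicate block 0 members passed. Of 360 alternative fold changes of 15 members, 334 kept their direction and side of the threshold, 4 newly passed and 22 changed sign. These were Mbp, -0.0186 without weights and -0.17 to 0.26 with 1 library left out; C1ql1, -0.0582 without weights and -0.0288 to 0.23 with 1 library left out; Myrf, 0.0197 with the Xist covariate, 0.0020 with voom, 0.25 without Cre- replicates 3 and 4 (0.13 without weights too) and -0.34 to 0.0801 with 1 library left out; and Gal3st1, 0.0313 with TMM and 0.0271 with median-of-ratios scaling, 0.16 with the Xist covariate, 0.0353 with voom, 0.22 without Cre- replicates 3 and 4 (0.24 without weights too) and -0.37 to 0.16 with 1 library left out. The cause was not tested. With 1 library left out, values with no change of sign that moved by over 1.5 times were Cldn11 (0.01 to 0.28), Olig1 (0.14 to 0.48), Bcas1 (0.19 to 0.37), Car2 (0.02 to 0.13), Enpp6 (0.07 to 0.22), Olig2 (0.14 to 0.31), Pdgfra (0.03 to 0.11) and Ppp1r14a (0.26 to 0.58). The mature minus precursor difference was -0.02 without Cre- replicates 3 and 4 and 0.07 after the GC correction. In 2 of 25 fits, without Cre- replicate 1 and without Cre- replicate 5, the weights came from the gene-by-gene method. edgeR and DESeq2, planned on whole reads, were not run. Read numbers were at least 78 for every member, so the spread between libraries limits these values more than counting does.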
